A study of Mus musculus with 30 samples.

Results

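Cyclophosphamide was compared with dexamethasone in mouse lumbar dorsal root ganglia on day 2 of treatment. The 2 groups hold 6 of the 30 RNA-seq libraries of the study, 3 from mice given cyclophosphamide (library numbers 4, 5 and 6) and 3 from mice given dexamethasone (library numbers 7, 8 and 9), and they were chosen by drug and day alone. All mice were wild-type males of the strain C57BL/6J. They were perfused with RNAlater through the heart, and the ganglia L3 to L5 of both sides were taken. The labels give neither the doses, the schedule nor the age, and they do not say whether a library is 1 mouse or a pool. P-values therefore measure only the spread between libraries of a group, pooled over all 30 libraries of the study. Saline libraries of day 2, and cyclophosphamide, dexamethasone and saline libraries of day 8 (3 libraries in each group, same strain, sex and genotype, other libraries throughout), are given beside the results. CVAD, which is cyclophosphamide, vincristine, doxorubicin and dexamethasone together, has libraries on both days, and vincristine alone and doxorubicin alone on day 8. Their libraries enter the filter and the spread behind each p-value, and single values of CVAD and vincristine are given.

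Each dorsal root ganglion houses sensory neuron cell bodies wrapped by satellite glia, beside Schwann cells of the axons, blood vessels and immune cells that live in the tissue. Cyclophosphamide is a prodrug that the liver turns into a mustard that crosslinks DNA, which stalls replication, stabilises p53 and depletes dividing cells, B lymphocytes among them. Dexamethasone is a synthetic agonist of the glucocorticoid receptor, a nuclear receptor that binds DNA and raises genes such as Fkbp5, Tsc22d3 and Per1, and it too depletes lymphocytes and restrains inflammation. The comparison therefore sets an alkylating drug against an anti-inflammatory steroid in the same tissue at the same early day.

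The values are TPM, transcripts per 1e+06, which divide by gene length and scale each library to one total. Protein-coding genes held 61.9 to 70.0% of the TPM in the 6 libraries, and 25419 to 27676 genes were above 0. The number of reads is not given, so depth is unknown. Sensory neuron and glia genes were abundant in every library: Calca, which encodes the peptide CGRP, lay between 203 and 294 TPM, and Fabp7, a fatty acid carrier of satellite glia, between 116 and 169. Libraries of the same drug correlated with each other at a median r of 0.967 across genes (6 pairs, 0.961 to 0.971), and libraries of different drugs at a median of 0.967 (9 pairs, 0.965 to 0.973), so libraries were no more alike within a drug than between drugs. Dexamethasone replicate 3, library 9, stood apart in another way. Over 14605 genes its deviations from the mean of the 12 libraries of day 2 correlated at a mean r of −0.19 with those of libraries 1 to 8 and at 0.10 with those of the other libraries 9 to 12, whereas dexamethasone replicates 1 and 2 had 0.02 and 0.00 with the former and −0.22 and −0.25 with the latter. Deviations from a shared mean correlate below 0 on average, so these values are to be compared with each other and not with 0. The CVAD libraries of day 2 are numbers 1 to 3 and the saline libraries of day 2 are numbers 10 to 12. Likeness to libraries 9 to 12 is therefore mostly likeness to saline. The 2 ranges of numbers were not cleanly apart. Saline replicate 3, library 12, had −0.13 with libraries 1 to 8 and −0.0002 with the other libraries 9 to 12. Cyclophosphamide replicate 1, library 4, had −0.12 with the other libraries 1 to 8 and −0.10 with libraries 9 to 12. What the library numbers stand for is not stated, so medians that turn on library 9 are given with and without it.

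Of 25434 genes tested, 2 differed between the drugs at an adjusted p under 0.05 (limma, Benjamini-Hochberg), and both are small nucleolar RNAs. Gm22516 was lower in cyclophosphamide and Gm50451 was higher, each 0.00393% of the genes tested and together 0.00786%. Gm50451 entered the test only through the 3 cyclophosphamide libraries in which it is high, so its call is a description of them. No protein-coding gene passed. At an unadjusted p under 0.05 there were 330 higher (1.3%) and 326 lower (1.28%) genes, 2.58% of all, which is below the 5% that the threshold admits. Higher means above dexamethasone in cyclophosphamide throughout, and differences are log2 differences of mean log2(TPM + 1), a scale that understates changes of genes with few TPM. The median difference over all genes was 0.00, the 5th and the 95th percentiles were −0.45 and 0.44, and 51% of genes were above 0. Precision was fair for abundant genes: of 13317 genes with a mean of at least 10 TPM, 13029 (97.8%) had a 95% interval inside a 2-fold change either way. Over all 25434 genes the same was true of 20066 (78.9%), and 14248 (56%) had an interval inside a 1.5-fold change. In simulated data of this comparison 80.6% of 67 genes changed 2-fold and 41.8% of 67 genes changed 1.5-fold were recovered. The changed genes there had a mean of at least 2 TPM, and noise was drawn separately for each gene, without shifts shared within a library. Far more genes were changed than were called here, which eases the adjusted threshold. Recovery in the real libraries can therefore be lower.

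Small nucleolar RNAs guide chemical modification of ribosomal and spliceosomal RNA and are mostly cut from the introns of longer transcripts. Gm22516 (ENSMUSG00000088891) is 124 bases long and lies on the plus strand at chr2:31079703-31079826 in GRCm39, within Gpr107, a gene for a membrane protein of the Golgi, on the same strand. Its sequence is shown because it passed the test. It comes from GENCODE M21 on GRCm38 and is printed 5′ to 3′ with no part in capitals.
Gm22516: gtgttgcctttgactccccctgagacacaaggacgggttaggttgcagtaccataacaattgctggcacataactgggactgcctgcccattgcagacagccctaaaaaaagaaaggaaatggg
Gm50451 (ENSMUSG00000118744) is 71 bases long, on the minus strand at chr5:23915989-23916059 in GRCm39, within the long noncoding RNA AI506816 on the same strand.

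Gm22516 was at 0.744, 1.74 and 0 TPM in the cyclophosphamide libraries and at 8.68, 6.79 and 9.06 TPM in the dexamethasone libraries. The groups did not overlap. The saline libraries of day 2 were at 7.90, 7.78 and 7.48 TPM, beside those of dexamethasone. Among the 27 libraries other than the cyclophosphamide libraries of day 2 the lowest was 3.18, the median 7.91 and the highest 16.4 TPM, so the 3 low libraries are below every other library of the study. The log2 difference between the drugs was −2.44 ± 0.39 (SE, 95% interval −3.24 to −1.63, adjusted p = 0.023, limma). Gpr107, the gene around it, was at 80.9 ± 9.4 TPM in cyclophosphamide and 80.1 ± 2.7 in dexamethasone (SD, n = 3), a log2 difference of 0.01 ± 0.11. On day 8 Gm22516 was at 3.18, 6.40 and 7.30 TPM in cyclophosphamide and at 15.95, 6.29 and 7.92 in dexamethasone, overlapping groups with a log2 difference of −0.70 (unadjusted p = 0.085). The difference between days was −1.74 (unadjusted p = 0.0044, adjusted p = 1 in limma).

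Gm50451 was at 5.13, 3.67 and 4.34 TPM in the cyclophosphamide libraries and listed at 0 in all 3 dexamethasone and all 3 saline libraries of day 2. Of the 27 other libraries 24 were at 0. The exceptions were 4.04 TPM in CVAD replicate 1 of day 8 and 1.17 and 0.56 TPM in vincristine replicates 1 and 3. All 3 libraries of cyclophosphamide alone on day 8 were at 0. The fitted log2 difference was 2.42 ± 0.38 (adjusted p = 0.023, limma), a value that depends on the pseudocount of 1 because the other group is at 0. Of the 27 other libraries 2 reached 1 TPM, so without the 3 cyclophosphamide libraries the gene would not have passed the filter, which asks for 3 libraries at 1 TPM or more. A listed 0 can be a failed estimate in this table, in which all 37 mitochondrial genes and genes such as Irf1 are at 0 in every library. Its host AI506816 was at 22.5 ± 2.6 TPM in cyclophosphamide and 20.2 ± 2.3 in dexamethasone (SD, n = 3).

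Both calls rest on few values of short RNAs. Gm50451 lost its call whichever of the 6 libraries was omitted, with adjusted p from 0.051 to 0.283 (limma). Gm22516 lost it when dexamethasone replicate 1, 2 or 3 or cyclophosphamide replicate 1 or 3 was omitted (adjusted p from 0.138 to 0.360 in limma) and held it without cyclophosphamide replicate 2 (0.0089). Its log2 difference stayed between −2.79 and −2.06.

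**Figure D1:**
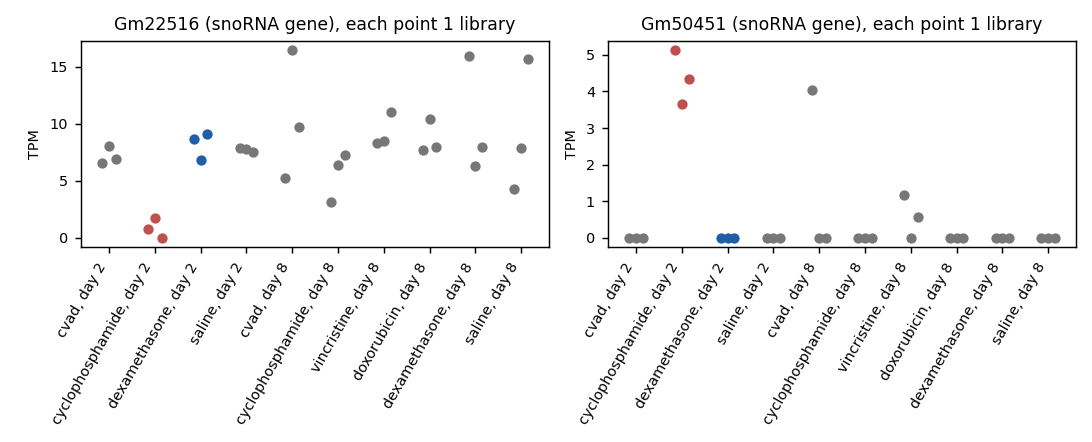
TPM of Gm22516 and Gm50451 in each of the 30 libraries, by drug and day, with cyclophosphamide of day 2 in red, dexamethasone of day 2 in blue and all others in grey. The red points of Gm22516 lie at 0 to 1.74 TPM below all others, and those of Gm50451 at 3.67 to 5.13 TPM where the blue points are at 0.

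The protein-coding genes of smallest p are named next as genes that did not pass, 11 in each direction. Each had groups that did not overlap, as 700 higher (2.75%) and 679 lower (2.67%) genes did (5.42% of those tested together), and an adjusted p of 1 (limma). The higher genes come before the lower ones. Pigl, an enzyme of the synthesis of GPI membrane anchors, was at 19.2, 16.8 and 16.5 TPM in cyclophosphamide and 13.5, 11.9 and 14.3 in dexamethasone. Its log2 difference of 0.38 ± 0.10 had the smallest p of any named coding gene, 0.00076 unadjusted. Senp6, a protease that removes SUMO chains from proteins, was at 133, 109 and 112 TPM against 98.9, 84.3 and 71.4, a log2 difference of 0.48 ± 0.18. Upf3b, a factor of nonsense-mediated decay of messenger RNA, was at 27.9, 25.4 and 24.2 TPM against 22.2, 21.4 and 20.3. Styx, a pseudophosphatase, had 15.3, 14.99 and 16.1 TPM against 12.1, 7.90 and 11.9, the largest log2 difference among these at 0.52 ± 0.16. Its dexamethasone libraries were below all 3 saline libraries (14.2, 13.4 and 16.7), while its cyclophosphamide libraries lay among them.

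Kcnk12, a subunit of the tandem-pore potassium channels, was the only ion channel among the 22. It was at 42.5, 41.5 and 33.1 TPM in cyclophosphamide and 32.0, 29.9 and 27.4 in dexamethasone. The remaining 6 higher genes were Commd4, Bola2, which takes part in iron-sulfur cluster handling, Whamm, an activator of actin nucleation, Rrnad1, the nucleoporin gene Nupl2 and the poly(A)-binding protein gene Pabpc5. Their log2 differences lay between 0.26 (Commd4) and 0.52 (Pabpc5).

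On the lower side Zfp959, a zinc finger gene, had the largest difference. It was at 6.35, 4.35 and 3.70 TPM in cyclophosphamide and 9.41, 10.8 and 11.1 in dexamethasone, a log2 difference of −1.002 ± 0.34, with saline at 7.71, 6.601 and 11.9. On day 8 its difference was 0.36, of the other sign. Mrap2, an accessory protein of melanocortin receptors, was at 5.67, 6.21 and 6.51 TPM against 13.9, 8.54 and 8.37, a log2 difference of −0.63 ± 0.21. Thoc7, a subunit of the THO complex that couples transcription to export of messenger RNA, was at 52.6, 45.1 and 40.9 TPM against 60.9, 62.4 and 56.9. Znhit6, an assembly factor of box C/D small nucleolar particles, was at 17.4, 18.8 and 18.2 TPM against 23.998, 28.6 and 21.1. Paip2, a repressor of the poly(A)-binding protein, had the smallest difference at −0.21, with 130, 132 and 119 TPM against 151, 136 and 153.

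Tead2, a DNA-binding partner of the Hippo pathway coactivators YAP and TAZ, was at 9.35, 12.4 and 13.8 TPM in cyclophosphamide and 16.8, 16.4 and 19.7 in dexamethasone on day 2. On day 8 it was at 10.2, 11.7 and 10.3 against 15.6, 17.4 and 17.4. The groups did not overlap on either day, and the log2 differences were −0.55 ± 0.16 and −0.60 ± 0.16, with unadjusted p of 0.0026 and 0.0012 and adjusted p of 1 and 0.83 (limma). Saline libraries of day 2 were at 9.39, 14.6 and 13.2 TPM, nearer to cyclophosphamide. The other 5 lower genes were Wdr54, Tex30, Ube2j2, which encodes a ubiquitin-conjugating enzyme of the endoplasmic reticulum, Lrrfip2 and Fam174b, with log2 differences from −0.54 (Tex30) to −0.30 (Lrrfip2).

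**Figure D2:**
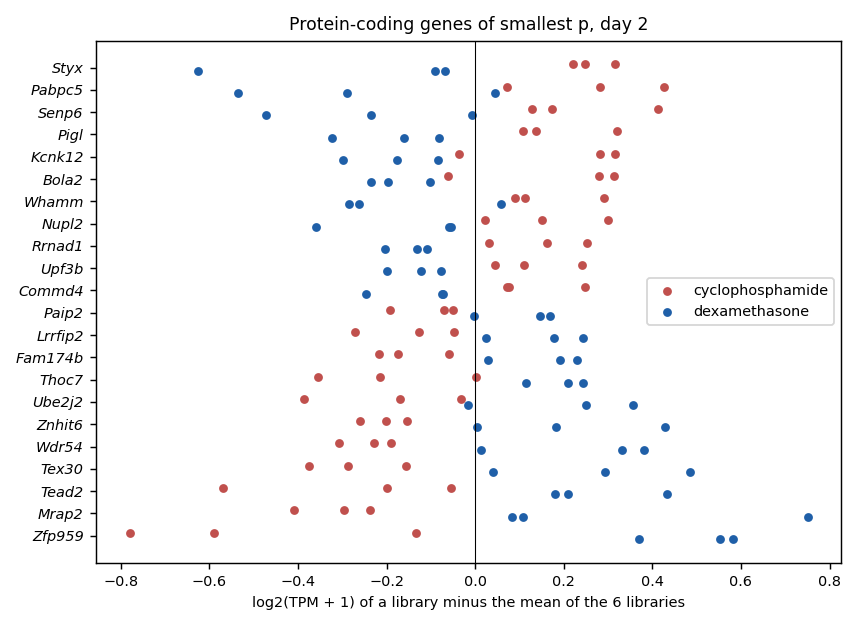
The 22 protein-coding genes of smallest p that did not pass, 11 higher and 11 lower in cyclophosphamide, each drawn as log2(TPM + 1) of the 6 libraries minus their mean. The drugs do not overlap for any of them because the rule that chose them asks for this, with Zfp959 at the largest difference (−1.002).

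Among genes that the glucocorticoid receptor raises, none separated the drugs. Of 32 targets tested 17 were higher and 15 lower in cyclophosphamide, 0 had an unadjusted p under 0.05 and 0 had groups that did not overlap, against 2.58% and 5.42% of all genes. The median log2 difference was 0.03, against 0.00 over all genes. Fkbp5, a chaperone that limits the receptor's own activity, was at 54.5, 56.3 and 60.8 TPM in cyclophosphamide, at 58.1, 44.4 and 49.6 in dexamethasone and at 45.5, 49.8 and 96.5 in saline. The log2 difference between the drugs was 0.18 with a 95% interval of −0.35 to 0.71, so a dexamethasone level over 1.5-fold above that of cyclophosphamide lies outside it. Tsc22d3, which encodes the anti-inflammatory protein GILZ, was at 121, 119 and 102 TPM against 111, 110 and 100, with an interval of −0.18 to 0.36. Per1, a clock gene that glucocorticoids induce, was at 37.2, 39.8 and 47.5 TPM against 42.0, 38.9 and 32.0, and its interval was wider, −0.49 to 0.77.

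Less precise targets leave more room. Sgk1, a kinase that controls sodium channels, was at 26.1, 37.2 and 40.4 TPM in cyclophosphamide and 39.5, 29.99 and 33.2 in dexamethasone, with an interval of −0.61 to 0.61. Zbtb16, a transcription factor gene, was at 16.99, 22.3 and 26.01 TPM against 19.4, 15.3 and 11.3, and had the largest difference of the list, 0.49, with an interval of −0.72 to 1.70. Saline replicate 3 of day 2 was the highest library of the 9 for Fkbp5, Sgk1 and Zbtb16 (68.6 TPM for Zbtb16 beside 10.9 and 10.6 in the other saline libraries), which widens the intervals because 1 spread per gene is shared by all groups. Mt2, a metal-binding metallothionein, was at 41.7, 36.3 and 38.5 TPM against 48.7, 26.8 and 47.7. Dusp1, a phosphatase that switches off MAP kinases, had the lowest difference of the list at −0.25 (interval −0.57 to 0.07). Of the 32 intervals 29 lay inside a 2-fold change and 18 inside a 1.5-fold change. Leaving out 1 library at a time moved the median of the list between −0.02 and 0.10.

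The receptor itself differed by little. Nr3c1, the glucocorticoid receptor gene, was at 52.2, 61.3 and 53.5 TPM in cyclophosphamide and 61.2, 52.7 and 56.5 in dexamethasone, a log2 difference of −0.03 (interval −0.27 to 0.21). Of 12 genes of the receptor and its handling, which include the chaperone gene Hsp90aa1 and the mineralocorticoid receptor gene Nr3c2, 3 were higher and 9 lower, 0 at an unadjusted p under 0.05, with a median of −0.04. Hsd11b2, which inactivates glucocorticoids, was below the filter. On day 8 the median of the 32 targets was −0.05. Against saline of day 2, whose libraries both comparisons share, the median of the targets was −0.02 for cyclophosphamide and −0.12 for dexamethasone. Saline replicate 3 had the highest summed TPM of the targets, 2005, beside 1294 and 1465 in the other saline libraries, so these medians depend on it in part.

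Matches to the palindrome that the receptor is known to bind are shown for the targets whose promoters carry it in full, so that the values can be read beside the sequence. The motif searched was GNACANNNTGTNC, which is its own reverse complement, so both strands were read at once and no other motif was searched. RefSeq promoters of GRCm38.p6, from 250 bases before to 50 after a start site, were matched for 26 of the 32 targets. The motif was in 4 of their 42 promoters (9.52%) and in 156 of all 32851 promoters (0.475%). The 4 sites are printed with 10 bases on each side and the motif in capitals. That of Map3k6 is at chr4:133240627-133240659 on the plus strand, 181 bases before the start site. Mt1 has its site at chr8:94178985-94179017, plus strand, 94 bases before the start. In Sgk1 it is at chr10:21993692-21993724, plus strand, 188 bases before, and in Slc10a6 at chr5:103629544-103629576, minus strand, 163 bases before.
Map3k6: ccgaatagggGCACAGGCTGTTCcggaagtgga
Mt1: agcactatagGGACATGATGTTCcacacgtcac
Sgk1: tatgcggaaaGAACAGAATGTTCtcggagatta
Slc10a6: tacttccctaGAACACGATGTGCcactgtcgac
These are matches of letters, not measured binding. All 4 genes had overlapping groups. Map3k6, a kinase gene, was at 7.605, 8.61 and 6.82 TPM in cyclophosphamide and 8.90, 9.64 and 6.78 in dexamethasone. Mt1, a metallothionein, was at 77.4, 78.1 and 66.9 TPM against 73.7, 71.0 and 86.6. Slc10a6, a transporter of sulfated steroids, was at 11.9, 11.5 and 9.95 TPM against 10.8, 9.76 and 7.46, with the lowest library in dexamethasone.

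**Figure D3:**
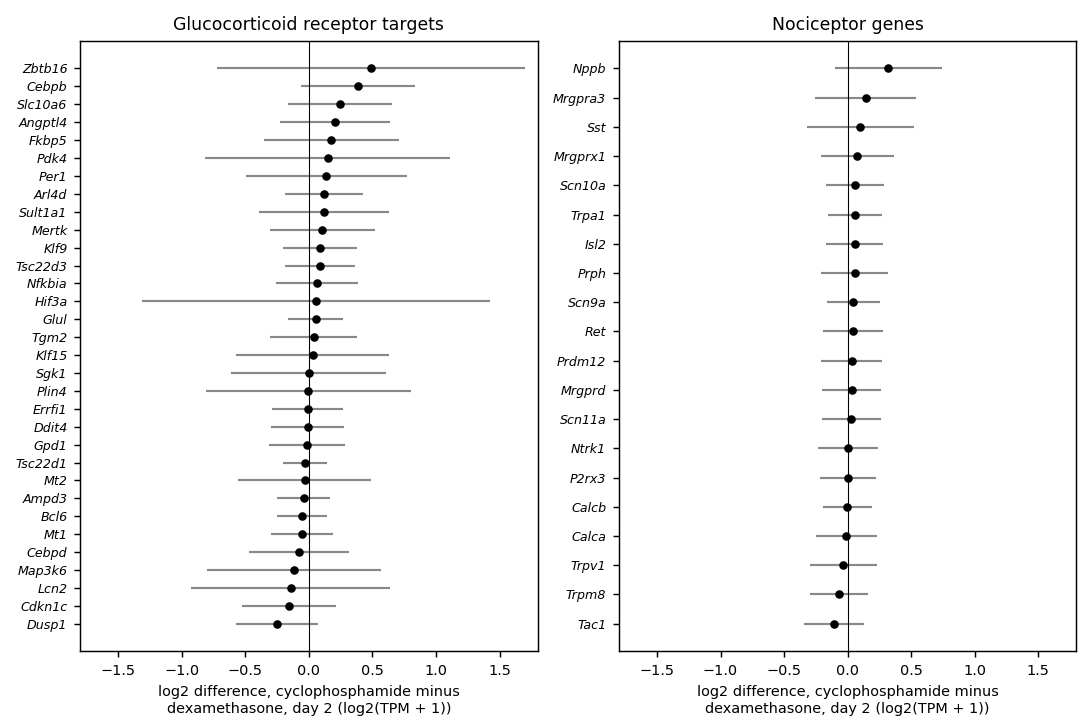
Log2 difference (cyclophosphamide minus dexamethasone, day 2) of 32 glucocorticoid receptor targets, left, and 20 nociceptor genes, right, with 95% intervals as bars. All 52 intervals cross 0, and those of the nociceptor genes are narrower, with 19 of 20 inside a 1.5-fold change.

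Genes of the DNA damage response differed by little between the drugs. Of 28 targets of p53 tested, 14 were higher and 14 lower, 0 at an unadjusted p under 0.05, with a median of −0.00. Cdkn1a, which encodes the cell cycle inhibitor p21, was at 83.1, 79.4 and 86.5 TPM in cyclophosphamide and 93.1, 75.4 and 97.5 in dexamethasone, with an interval of −0.42 to 0.25. Mdm2, the ubiquitin ligase that degrades p53, was at 54.9, 53.9 and 56.0 TPM against 62.2, 49.9 and 51.3, with an interval of −0.19 to 0.22. Ccng1, a cyclin gene that p53 induces, was at 73.2, 66.5 and 61.4 TPM against 67.6, 69.9 and 66.9, with an interval of −0.29 to 0.24. For these 3 genes any rise over 1.5-fold in cyclophosphamide above dexamethasone is outside the interval. The groups of 2 of the 28 targets did not overlap, where 5.42% of all genes did not, in opposite directions: Aen, a nuclease gene, at 39.0, 36.3 and 35.0 TPM against 30.9, 28.1 and 26.5, and Pmaip1, which encodes the death protein NOXA, at 2.03, 1.63 and 1.63 TPM against 2.59, 2.41 and 2.55. Their adjusted p was 1 (limma).

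Repair and detoxification genes also lay close. Of 24 genes of crosslink and DNA repair, 10 were higher and 14 lower with a median of −0.01, and all 24 intervals lay inside a 2-fold change. Atm, the kinase that signals double-strand breaks, was at 23.8, 24.7 and 23.95 TPM in cyclophosphamide and 23.6, 24.2 and 23.1 in dexamethasone. Among 23 genes of cyclophosphamide and aldehyde metabolism 10 were higher and 13 lower, with a median of −0.05. Aldh1a1, the aldehyde dehydrogenase that detoxifies activated cyclophosphamide, was at 24.3, 28.2 and 41.5 TPM against 50.5, 17.5 and 52.7, and at 43.9, 57.7 and 61.9 in saline. Dexamethasone replicate 2 was the lowest library and the other 2 the highest of the 6, so the interval is wide, −0.90 to 0.43. Gsta3, a glutathione transferase, was lower at 2.20, 1.70 and 1.48 TPM against 2.97, 2.34 and 3.54. It was the only 1 of these 23 genes whose groups did not overlap, where 5.42% of all genes had such groups. Of 18 antioxidant targets of NRF2, 11 were higher and 7 lower (median 0.01).

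B cell genes had the lowest median of the 36 gene lists, −0.38. Of 15 genes tested 12 were lower and 3 higher in cyclophosphamide, and 4 were lower at an unadjusted p under 0.05, where 1.28% of all genes were. That count of 4 was 1 without cyclophosphamide replicate 1 or 2 or dexamethasone replicate 1 or 2. It was 5 without cyclophosphamide replicate 3 and 6 without dexamethasone replicate 3. With a pseudocount of 0.1 or the 6 libraries alone it was 1. Among the 3 genes with a mean of at least 5 TPM it was 0. None of the 15 genes passed (limma, adjusted p = 1). In whole ganglia a difference in the number of B cells and one in RNA per B cell cannot be told apart. The part of tissue carried along in the dissection was not tested. Cd79b, the signalling chain of the B cell receptor, was at 0, 0 and 2.47 TPM in cyclophosphamide and 8.14, 6.00 and 2.19 in dexamethasone, with saline at 2.23, 1.22 and 1.13. Its log2 difference was −1.96 ± 0.70 (interval −3.41 to −0.51, unadjusted p = 0.010). Cd22, an inhibitory receptor of B cells, was at 0, 0 and 1.57 TPM against 2.28, 2.64 and 0.931, a log2 difference of −1.05 ± 0.49. Ms4a1, which encodes CD20, was at 0, 0 and 2.49 TPM against 3.30, 5.68 and 1.03. It was picked out after its values were seen. In all 3 genes cyclophosphamide replicate 3 was above dexamethasone replicate 3, so the groups overlapped, and dexamethasone replicates 1 and 2 were the 2 highest libraries of the 6.

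More abundant B lineage genes gave smaller differences. Igkc, the constant region of the kappa light chain, was at 18.1, 13.4 and 23.8 TPM in cyclophosphamide and 34.2, 27.3 and 13.1 in dexamethasone. Cd79a was at 1.72, 2.69 and 3.64 TPM against 7.53, 6.51 and 2.89. Ebf1, a B lineage factor that other cells of the ganglion also express, was at 135, 115 and 107 TPM against 115, 118 and 114. Vpreb1, a chain of the receptor of B cell precursors, was the member without overlap, at 0.570, 0.663 and 0.497 TPM against 0.800, 1.98 and 0.679. The summed TPM of the 15 genes was 204, 194 and 213 in cyclophosphamide, 257, 253 and 173 in dexamethasone and 154, 180 and 195 in saline. Ebf1 made up more than any other gene of these sums, and without it the other 14 genes summed to 69.5, 79.0 and 105.7 TPM in cyclophosphamide, 142.0, 134.6 and 59.2 in dexamethasone and 43.5, 64.7 and 86.0 in saline. Dexamethasone replicates 1 and 2 had the highest sums of the 9 libraries. Cd79b and Cd22 were listed at 0 in cyclophosphamide replicates 1 and 2, below every saline library of day 2. A listed 0 can be a failed estimate in this table. The list as a whole did not lie below saline. Its median against saline of day 2 was 0.09 for cyclophosphamide and 0.66 for dexamethasone, where all genes had 0.06 and 0.06. In limma 0 and 2 of the 15 genes had an unadjusted p under 0.05, as did 7.51% and 5.37% of all genes. The median of the list depended on single libraries: it was −0.94 without dexamethasone replicate 3, −0.21 without replicate 1 and −0.14 without replicate 2, and −0.02 over the 3 genes with a mean of at least 5 TPM. On day 8, in other libraries, the median was −0.59 and all 15 genes were lower in cyclophosphamide, 2 of them at an unadjusted p under 0.05 (limma). Of all genes 42.5% were above 0 on that day and 3.02% were lower at that p.

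**Figure D4:**
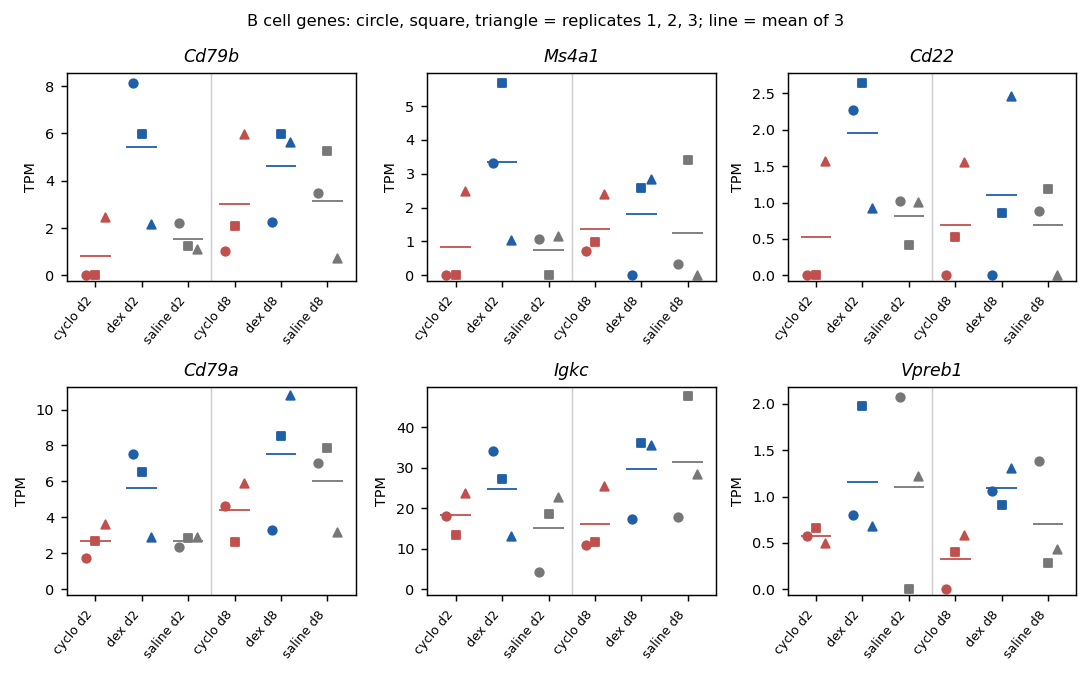
TPM of Cd79b, Ms4a1, Cd22, Cd79a, Igkc and Vpreb1 in each library of cyclophosphamide, dexamethasone and saline on days 2 and 8, with replicates 1, 2 and 3 as circle, square and triangle and the mean of 3 as a line. On day 2 dexamethasone replicates 1 and 2 stand above the other libraries and dexamethasone replicate 3 lies near the cyclophosphamide libraries, except for Vpreb1, where all 3 dexamethasone libraries are above cyclophosphamide and a saline library is the highest at 2.07 TPM.

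Other blood cell genes followed single libraries more than drugs. Of 17 neutrophil genes tested 4 were higher and 13 lower, 0 at an unadjusted p under 0.05 (limma). Their median of −0.12 was −0.41 without dexamethasone replicate 3 and 0.14 without dexamethasone replicate 1. S100a8 and S100a9 were listed at 0 in every library and not tested. Camp, the antimicrobial peptide cathelicidin, was at 14.1, 20.6 and 13.3 TPM in cyclophosphamide and 24.4, 16.8 and 10.4 in dexamethasone (interval −0.77 to 0.67). Ngp, a granule protein, was at 52.4, 65.6 and 51.0 TPM against 83.2, 67.0 and 35.2. Elane, the elastase of granulocyte precursors, was at 4.44, 7.32 and 5.26 TPM against 13.9, 8.42 and 3.19 (interval −1.18 to 0.48). For all 3 genes the highest and the lowest of the 6 libraries were dexamethasone replicates 1 and 3. On day 8 all 17 genes were lower in cyclophosphamide, with a median of −0.63 and 5 at an unadjusted p under 0.05, on a day on which 3.02% of all genes were lower at that p and 42.5% were above 0.

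Genes of cell division gave the same picture. Of 32 tested 18 were higher and 14 lower, with a median of 0.04, which was −0.27 without dexamethasone replicate 3 and 0.20 without replicate 1. Mki67, a marker of cycling cells, was at 5.45, 11.3 and 9.86 TPM in cyclophosphamide and 11.8, 11.1 and 2.51 in dexamethasone, with an interval of −0.76 to 1.20. On day 8 the list had a median of −0.50, with 30 of 32 genes lower in cyclophosphamide, 4 at an unadjusted p under 0.05 (limma). Of all genes 42.5% were above 0 on that day and 3.02% were lower at that p. Macrophage genes were mostly lower on day 2, 19 of 21, by little: the median was −0.11, and 0.01 without dexamethasone replicate 1. Csf1r, the receptor that macrophages need to survive, was at 32.6, 33.5 and 32.8 TPM against 37.1, 31.3 and 34.4. Aif1, which encodes IBA1, was lower at 4.76, 4.42 and 4.43 TPM against 6.32, 5.92 and 5.84. It was the only 1 of the 21 genes whose groups did not overlap, where 5.42% of all genes had such groups. Of 17 T and NK cell genes 10 passed the filter, 4 higher and 6 lower (median −0.17, −0.35 without dexamethasone replicate 3 and 0.12 without dexamethasone replicate 2). Of the 7 below it, 4 were listed at 0 in every library, Cd3d, Cd3e and Cd3g among them, which can be failed estimates. Gzma, a protease of cytotoxic cells, was listed at 0 in each library of cyclophosphamide and had 0, 2.08 and 1.69 TPM in dexamethasone.

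No interferon or cytokine gene was called. Of 25 interferon response genes 18 were higher and 7 lower (median 0.09, and −0.00 without dexamethasone replicate 3). Ifih1, the RNA sensor MDA5, was at 16.8, 18.3 and 14.95 TPM in cyclophosphamide and 14.97, 11.4 and 13.1 in dexamethasone, a log2 difference of 0.32 (interval 0.04 to 0.61, unadjusted p = 0.028). On day 8 its difference was −0.25. Of 14 cytokine and chemokine genes 9 were higher and 5 lower, with a median of 0.13 that was −0.06 without dexamethasone replicate 2 and −0.02 without dexamethasone replicate 3. Lif, a cytokine of the interleukin-6 family that injured nerve makes, was at 4.82, 3.97 and 4.43 TPM against 2.24, 1.27 and 2.06 without overlap, with saline at 1.64, 3.03 and 3.20. Its log2 difference was 0.94 ± 0.41 (interval 0.09 to 1.78, unadjusted p = 0.032) on day 2 and −0.56 on day 8, where cyclophosphamide had 0.843, 2.07 and 2.09 TPM and dexamethasone 2.06, 2.01 and 5.11. These were the only 2 of the 586 distinct list genes higher at an unadjusted p under 0.05. Ccl5, a chemokine of T cells, was lower without overlap at 2.66, 2.49 and 1.58 TPM against 2.92, 3.22 and 4.41. Il1b was at 0.968, 4.26 and 2.57 TPM against 0.696, 2.78 and 1.79, and Ccl2, which draws monocytes, at 8.19, 6.78 and 9.64 against 6.85, 4.72 and 11.7.

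Sensory neuron genes differed by little, within narrow intervals. Of 20 nociceptor genes 15 were higher and 5 lower, with a median of 0.04, and all 20 intervals lay inside a 2-fold and 19 inside a 1.5-fold change. Calca was at 294, 260 and 203 TPM in cyclophosphamide and 242, 252 and 261 in dexamethasone, with an interval of −0.25 to 0.23. Trpv1, the receptor of heat and capsaicin, was at 97.3, 92.4 and 73.7 TPM against 98.5, 92.7 and 77.7 (interval −0.30 to 0.23). Scn10a, the sodium channel Nav1.8 of pain fibres, was at 303, 279 and 219 TPM against 250, 258 and 252 (interval −0.17 to 0.29). Cyclophosphamide replicate 3 was the lowest of the 6 libraries for each of these, and the summed TPM of the 20 genes was 2794, 2552 and 2042 in cyclophosphamide and 2329, 2498 and 2379 in dexamethasone. The same library had the lowest share of TPM in coding genes, 61.9%. Without it the nociceptor median was 0.16, and without cyclophosphamide replicate 1 it was −0.07. Nppb, the itch peptide, was at 25.3, 24.5 and 14.2 TPM against 18.4, 18.4 and 12.9. The 15 genes of large-diameter neurons (13 higher, median 0.05) and the 20 pain-related channels (12 higher, median 0.04) lay as close.

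Glia, vessels and connective tissue moved little. All 14 satellite glia genes had intervals inside a 1.5-fold change (median 0.02). Of 15 genes of myelinating Schwann cells 12 were lower, with a median of −0.11 and all 15 intervals inside a 2-fold change. Among 15 endothelial genes (median −0.04), Cldn5, a tight junction protein, was lower without overlap at 32.7, 35.5 and 33.7 TPM against 36.9, 38.3 and 45.0. Slco1a4, an anion transporter of the blood-nerve and blood-brain barriers, was lower at 23.9, 30.4 and 30.8 TPM against 34.2, 32.8 and 35.6, and Ly6c1, a surface protein, was higher at 52.996, 62.3 and 56.1 TPM against 47.7, 46.8 and 38.2. These are 3 of 15 genes, where 5.42% of all genes had groups without overlap, and their adjusted p was 1 (limma).

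The lists of heat shock chaperones and of endoplasmic reticulum and integrated stress genes had medians just below 0, with none called. Leaving out cyclophosphamide replicate 3 raised both medians, as it raised the nociceptor median above. Of 16 heat shock chaperones 14 were lower, with a median of −0.05 that was −0.01 without cyclophosphamide replicate 3. Hspa1b, the inducible HSP70, was at 22.2, 25.03 and 18.04 TPM in cyclophosphamide and 24.96, 22.2 and 41.4 in dexamethasone, a log2 difference of −0.38 that was −0.12 without dexamethasone replicate 3. Ddit3, the stress factor CHOP, was at 30.2, 35.8 and 30.3 TPM against 40.2, 37.5 and 44.1 without overlap, and at 43.0, 33.1 and 41.1 in saline. Its log2 difference was −0.33 ± 0.14 (interval −0.61 to −0.05, unadjusted p = 0.023). Its upstream factor Atf4 was at 110, 101 and 84.6 TPM against 92.3, 96.9 and 97.7. Of 16 genes of endoplasmic reticulum and integrated stress 11 were lower (median −0.02, and 0.06 without cyclophosphamide replicate 3). Atf3, the marker of injured neurons, was at 7.47, 9.85 and 9.14 TPM against 11.04, 10.003 and 10.1, without overlap by a narrow margin (interval −0.91 to 0.47), and both drugs were below the saline libraries of day 2, at 16.8, 12.6 and 27.1. Fos, an immediate early gene, was at 32.2, 33.7 and 10.8 TPM in cyclophosphamide and 30.5, 29.2 and 13.001 in dexamethasone, so replicate 3 was low in both drugs. Tubb6, a beta-tubulin, was at 19.97, 17.4 and 16.2 TPM against 24.8, 19.9 and 22.3 (unadjusted p = 0.028), and the 19 genes of tubulins and axonal transport had a median of 0.01.

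Clock genes are given because glucocorticoids reset the clock of peripheral tissue. Of 18 tested 6 were higher and 12 lower, with a median of −0.06, and 0 had an unadjusted p under 0.05 on day 2. Nr1d1, a repressor of the clock, was at 54.2, 54.7 and 66.7 TPM in cyclophosphamide and 71.4, 60.7 and 76.2 in dexamethasone, a log2 difference of −0.24. Dbp, a clock output factor, was at 31.9, 37.8 and 47.2 TPM against 54.3, 35.1 and 65.3, a log2 difference of −0.37. On day 8 the list had a median of 0.20, and the difference was 0.66 for Nr1d1 and 0.94 for Dbp. The difference between days had an unadjusted p under 0.05 for 7 of the 18 genes and an adjusted p under 0.05 for 0 (limma), among all genes 3.64% and 0. The hour of collection is not given.

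Tissue that a dissection can carry along varied within the drugs. The 15 skeletal muscle genes summed to 149, 957 and 965 TPM in cyclophosphamide and 491, 1217 and 109 in dexamethasone. Their median log2 difference was 0.43, turned to −0.84 without dexamethasone replicate 3 and to 1.58 without cyclophosphamide replicate 1, and lay at −1.53 on day 8. The 12 spinal cord genes summed to 153, 154 and 146 TPM against 152, 146 and 167, the 2 drugs side by side, with 154, 242 and 307 in saline. Of 14 genes of bone and cartilage 10 were higher (median 0.16), among them the cartilage collagen Col2a1 at 13.9, 9.37 and 11.6 TPM against 8.05, 8.42 and 8.93 without overlap. Of 10 adipocyte genes 9 were higher (median 0.21, and 0.02 without dexamethasone replicate 3), and 7 of 13 red blood cell genes were (median 0.05, and −0.19 without dexamethasone replicate 3). The part of these tissues in other differences was not tested.

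The remaining lists are given by their counts and medians, with none of their genes called. Of 15 immediate early genes 11 were lower (median −0.13), and of 18 genes of the nerve injury response 11 were lower (median −0.07). Of 8 genes of MHC class II, which present antigen, 5 were lower (median −0.04, which was −0.25 without dexamethasone replicate 3 and 0.22 without dexamethasone replicate 1), and of 14 annexins and other steroid-linked genes 9 were lower (median −0.01, and −0.20 without dexamethasone replicate 3). Fibroblast and collagen genes had 11 of 17 lower (median −0.03), and genes of mural cells, which sheathe vessels, had 7 of 11 higher (median 0.03). Of 16 genes of cholesterol synthesis 11 were higher (median 0.02), and of 19 nuclear genes of the respiratory chain 9 were higher (median −0.00), with all 16 and all 19 intervals inside a 1.5-fold change.

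Over the 36 lists together the 586 genes tested held 10 with an unadjusted p under 0.05, 2 higher and 8 lower, which is 1.71%, against 2.58% of all genes. The count was 3 (0.512%) without cyclophosphamide replicate 1, where 576 of all genes had such a p, and 16 (2.73%) without cyclophosphamide replicate 3, where 1069 had. Groups that did not overlap were found for 6 higher and 12 lower members, 3.07% of the list genes, against 5.42% of all genes. The list members named above for such groups are among these. No list gene had an adjusted p under 0.05 in limma.

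**Figure D5:**
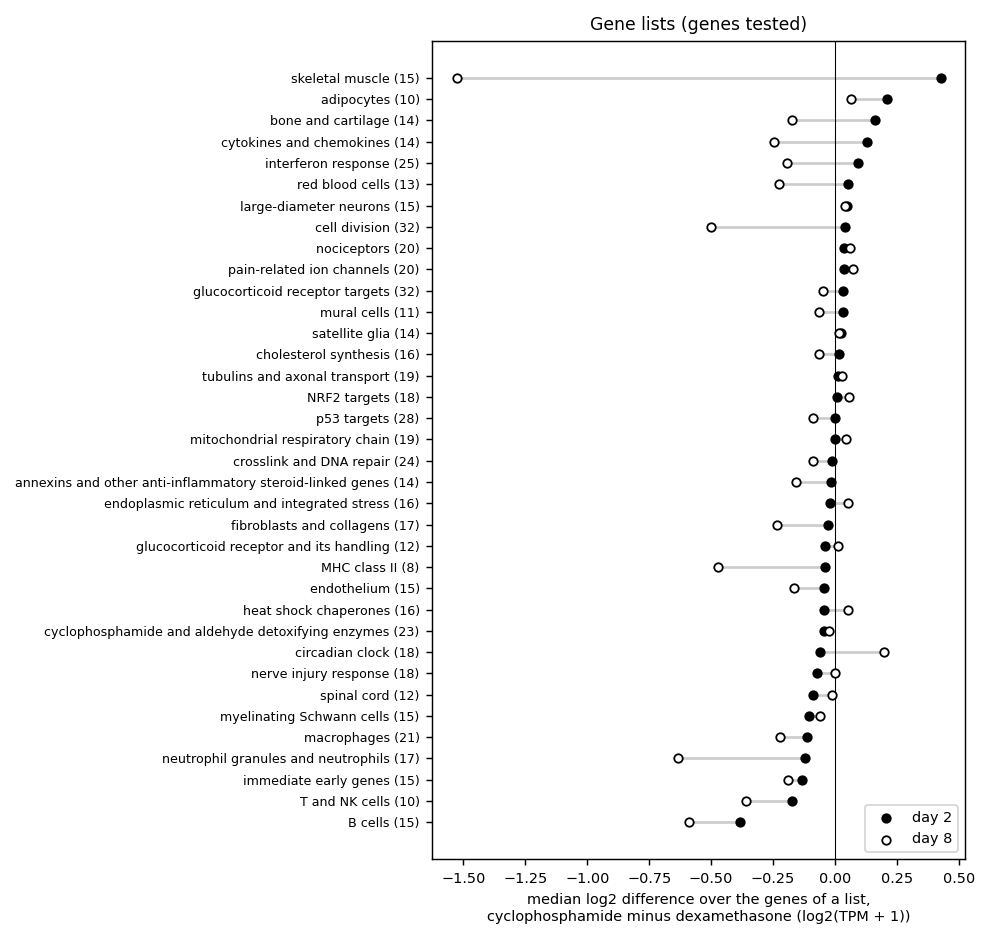
Median log2 difference (cyclophosphamide minus dexamethasone) of each of the 36 gene lists, filled for day 2 and open for day 8. On day 2 most medians lie near 0, apart from skeletal muscle at 0.43 and B cells at −0.38, and on day 8 skeletal muscle, neutrophil, B cell and cell division genes lie lower.

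The 2 days were then set side by side, since they use different libraries. On day 8, 3 genes passed between the drugs (0.0118% of those tested, limma), and 329 were higher (1.29%) and 767 lower (3.02%) at an unadjusted p under 0.05, 4.31% in all, with 42.5% of genes above 0. The genes were mostly not those of day 2. Of the 656 genes of small p on day 2, 52 (7.93%) also had one on day 8, which is 4.74% of the 1096 of day 8, and 21 of the 52 kept their direction. Direction was kept on day 8 by 299 of the 656 (45.6%), against 50.2% of all genes. Of the 24 genes named above for their p-values 12 kept it. Tead2, Thoc7 and Lrrfip2 were the 3 with the same direction and an unadjusted p under 0.05 on both days, at −0.55 and −0.60, −0.38 and −0.36, and −0.30 and −0.28. Upf3b and Paip2 also had an unadjusted p under 0.05 on both days, but in opposite directions. Upf3b was at 0.27 on day 2 and −0.23 on day 8, and Paip2 at −0.21 and 0.16. The test of the difference between days called 0 genes (926 at an unadjusted p under 0.05, smallest adjusted p = 0.103, limma).

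Against the saline libraries of day 2, which both comparisons share, 3 genes passed for cyclophosphamide (0.0118%) and 1 for dexamethasone (0.00393%) in limma. At an unadjusted p under 0.05 there were 1909 (7.51%) and 1365 (5.37%) genes, beside 656 between the drugs. The saline libraries are numbers 10 to 12 and 5 of the 6 drug libraries are numbers 4 to 8, so for these counts the treatment and the library number cannot be told apart. For the genes named above the values stood as follows. Gm22516 had −2.37 for cyclophosphamide and 0.06 for dexamethasone. Tead2 had −0.06 and 0.49, Styx 0.07 and −0.46, Zfp959 −0.74 and 0.26, and Senp6 0.40 and −0.08. Atf3 was lower than saline with both, −0.96 and −0.74, and Aldh1a1 likewise, −0.80 and −0.56, neither passing (limma).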

How the data were processed

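Ribosomal RNA was depleted and stranded libraries were sequenced from ganglion RNA, per the labels' protocols. The authors deposited 1 table of TPM per gene, without counts. The tools StringTie 2.2.1, STAR 2.7.10b and FastQC 0.12.1 are named, as are GRCm39 and mm10, without roles, per the submitters' processing notes. Reads per library are not given, so no counting error was derived.

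Of 56686 genes, the 25434 that reached a TPM of 1 in 3 or more of the 30 libraries were tested as log2(TPM + 1). In limma 3.58.1 (R 4.3.3) a mean for each of 10 groups was fitted to all 30 libraries with moderated, trended variances (20 residual degrees of freedom), which pools the spread of all groups. P-values are 2-sided and adjusted by Benjamini-Hochberg over all genes in each of 5 comparisons, with a threshold of 0.05.

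The members, the 36 gene lists and the tests were chosen with earlier results of these data known. Lists are described by counts and medians. Named genes are the called genes, filled up to 12 in each direction with the protein-coding genes of smallest p (mean TPM of at least 2, groups without overlap, no predicted models), up to 2 list members in each direction with an unadjusted p under 0.05, and 19 preset genes. Other genes were picked after their values were seen. Some list members are not reported here by name. Replicate numbers were given in accession order and pair nothing. On simulated data of the day 2 comparison the fit made 6 false calls among 25234 unchanged genes. Promoter sequences come from RefSeq (GRCm38.p6), the small nucleolar RNA from GENCODE M21. Python 3.11.15, pandas 2.3.3, numpy 2.4.6 and matplotlib 3.10.9 were used.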

Additional observations from a re-analysis of the deposited data

How the results depend on the processing

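The 2 calls between the drugs on day 2 became 0 with a pseudocount of 0.1, protein-coding genes alone, the 6 libraries alone, array weights or a term for libraries 1 to 8, and 1 with no filter, a mean TPM of at least 5 or the day-2 libraries alone. The number of calls ranged from 0 to 2 when 1 library was left out, and the 2 without cyclophosphamide replicate 2 were Gm22516 and Traj26, a gene segment outside the naming rule. Adjusted p (limma) over these settings lay between 0.00066 and 0.283 for Gm50451 and between 0.0089 and 0.795 for Gm22516. The 656 genes of unadjusted p under 0.05 became 1466 with no filter, 285 with a mean TPM of at least 5, 384 among coding genes, and 576 to 1069 with 1 library left out, the most without cyclophosphamide replicate 3. Their split of 330 higher and 326 lower was 217 and 474 without dexamethasone replicate 3 and 216 and 473 with the term for libraries 1 to 8. Between these drugs the term gives the same log2 differences as leaving out dexamethasone replicate 3, because it varies only within the dexamethasone group. It is therefore no separate check. The split was 600 and 262 without dexamethasone replicate 1 and 628 and 441 without cyclophosphamide replicate 3. It was 352 and 224 without cyclophosphamide replicate 1 and 238 and 405 without cyclophosphamide replicate 2. The 3 calls of day 8 were 1 with no filter, a mean TPM of at least 5 or array weights, 0 among coding genes, and 0 to 5 with 1 library left out. The 0 calls for the difference between days were 2 with array weights and 0 to 2 with 1 left out. The 3 calls of cyclophosphamide against saline were 0 with a pseudocount of 0.1 or coding genes alone, 1 at a mean TPM of at least 5, 50 with array weights and 0 to 2 with 1 left out. The 1 call of dexamethasone against saline was 0 with a pseudocount of 0.1, a mean TPM of at least 5 or coding genes alone. It was 0 to 76 with 1 left out, the most without dexamethasone replicate 3. With the term this comparison rests on dexamethasone replicate 3 alone, so no count is given. Differences near 0 changed sign. With array weights Mt2 was 0.0078, Nr3c1 0.000955 and Calca 0.038. With the term, and likewise without dexamethasone replicate 3, Mt2 was 0.10, Mdm2 −0.021, Mki67 −0.39, Calca 0.017 and Aldh1a1 0.029. With 1 library left out the range was −0.12 to 0.18 for Sgk1, −0.31 to 0.11 for Mt2, −0.10 to 0.023 for Nr3c1, −0.041 to 0.12 for Mdm2, −0.090 to 0.035 for Ccng1, −0.39 to 0.55 for Mki67, −0.35 to 0.23 for Camp, −0.41 to 0.20 for Ngp, −0.85 to 0.064 for Elane, −0.13 to 0.14 for Calca, −0.13 to 0.087 for Trpv1, −0.039 to 0.19 for Scn10a and −0.74 to 0.029 for Aldh1a1. The cause was not tested in any of these. Over all named genes and settings 703 values kept direction and side of the threshold, 21 lost a call and 33 changed sign. No paired analysis was possible because the labels give no replicate numbers that the groups share. TPM without reads limits all statements on genes near 0.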
